A study of Mus musculus with 4 samples.

Results

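Cycling T cells are T cells that carry the transcripts of a dividing cell. Here they were chosen by measured values, as T cells with at least 2 UMIs (unique molecular identifiers, each counting 1 captured transcript) of Mki67 and Top2a together. A T cell needed at least 2 UMIs of Cd3d, Cd3e and Cd3g together, no UMI of the macrophage receptor Csf1r and at most 3 UMIs of the complement genes C1qa, C1qb and C1qc. Each cell also had at least 200 genes and at most 10% mitochondrial UMIs. The rule chose 749 of 30504 barcodes. They numbered 270 and 184 in the Raldh1/3 DKO libraries, against 152 and 143 in the Cas9 Control libraries. The same T cell gate without the Mki67 and Top2a condition took 5394 cells, of which 3832 had no UMI of either gene and are called non-cycling T cells. The remaining 813 had exactly 1 UMI and were placed in neither class.

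The cells came from untreated mouse fibrosarcomas harvested on day 11 after implantation, from which live CD45+ leukocytes were sorted by flow cytometry and read with 10x Genomics 3′ chemistry. The Raldh1/3 DKO tumours carried a double knockout of Raldh1 and Raldh3, enzymes that make retinoic acid from retinaldehyde. The Cas9 Control tumours carried Cas9, and the labels name no other agent for either group. Each group had 2 libraries, each pooled from 2 tumours, so that p-values measure the spread between pools. The labels do not say whether the lines were single clones.

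T cells that meet their antigen leave the resting state, copy their DNA in S phase and divide in G2 and mitosis. Retinoblastoma-family proteins hold cell cycle genes silent in resting cells. E2F factors then switch on the replication genes, and the mitotic genes follow later through promoter elements such as CCAAT boxes and the cell cycle genes homology region (CHR). Mki67 coats mitotic chromosomes, and Top2a untangles sister DNA before they separate. In tumours, dividing T cells include cytotoxic CD8 cells, CD4 helper cells and Foxp3+ regulatory cells, which restrain the others.

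The promoters of both genes that define the cells hold a CHR. They are shown with those of Ube2c, Cdk1 and Cdc20, which drive mitosis and belong to the G2 and mitosis list used as the check of the label below. Windows around the CHR, from RefSeq on GRCm38.p6, are written in the direction of the gene, and the capitals mark the CHR letters TTTGAA or their reverse complement.
Mki67, chr7:135716463-135716522, minus strand: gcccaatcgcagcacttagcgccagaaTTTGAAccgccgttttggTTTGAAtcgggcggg
Top2a, chr11:99024190-99024239, minus strand: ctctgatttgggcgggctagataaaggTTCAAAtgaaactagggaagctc
Ube2c, chr2:164769873-164769928, plus strand: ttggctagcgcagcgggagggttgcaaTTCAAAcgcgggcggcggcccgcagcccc
Cdk1, chr10:69352913-69352954, minus strand: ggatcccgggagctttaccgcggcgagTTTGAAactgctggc
Cdc20, chr4:118437344-118437388, minus strand: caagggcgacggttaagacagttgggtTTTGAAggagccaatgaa
In the 250 bases before each start, TTTGAA on either strand was present in 21 of 53 promoters (39.6%) of the G2 and mitosis genes with Mki67 and Top2a, of which 48 of 57 genes were matched. It was present in 5 of 36 promoters (13.9%) of the S phase list, of which 33 of 45 genes were matched, and in 16.0% of all 32851 promoters. CCAAT on either strand was present in 81.1%, 63.9% and 33.9% of the same promoter sets. The E2F letters GCGGGAA on either strand were present in 0 of the 53 mitotic promoters, in 30.6% of the S phase promoters and in 3.82% of all. None of the 3 motifs contains another, and a match describes the letters only.

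The label was checked against 2 lists that the rule did not use, 45 genes of S phase and replication and 55 of G2 and mitosis. It held well for part of the cells and weakly for the rest. The 433 members with at least 4 UMIs of Mki67 and Top2a (57.8%) had a median of 171 UMIs of these 100 genes, and the G2 and mitosis list summed to 9873 CPM (UMIs of the list on a per-million scale of all UMIs of these cells). The 316 members with 2 or 3 UMIs (42.2%) had a median of 15, and the same list summed to 1349 CPM. Non-cycling T cells had a median of 9 UMIs and 950 CPM, so that the members nearest the threshold stood closer to the non-cycling cells than to the other members. Just inside the threshold, the 214 cells with exactly 2 UMIs had a G2 and mitosis sum of 1381 CPM, and just outside it the cells with 1 UMI had 1084.

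Depth moved with this division. The median total was 11926 UMIs per cell in members with at least 4 UMIs of the 2 genes, 7291 in members with 2 or 3 and 4849.5 in non-cycling cells. The members with 2 or 3 UMIs made up 42.2% and 45.7% of the DKO members, against 42.8% and 37.1% of the control members. Their G2 and mitosis sums were 1243 and 983 CPM in DKO libraries, against 1908 and 1607 in control libraries. Values from members with at least 4 UMIs are therefore given beside the main results.

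**Figure D1:**
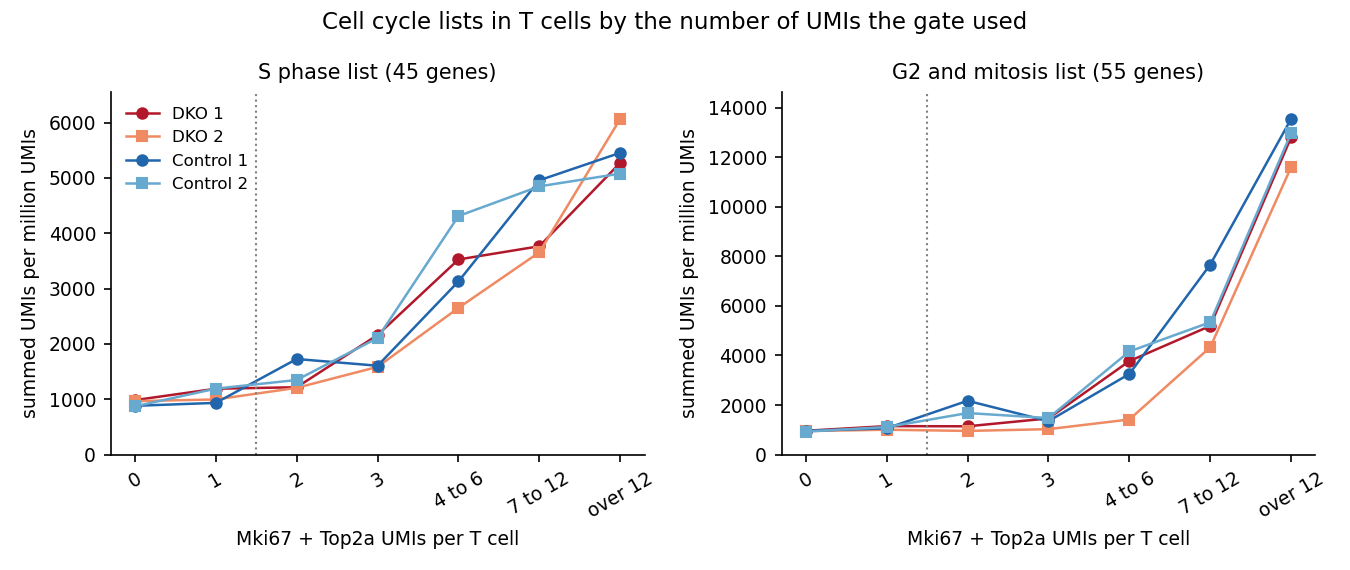
Summed CPM of the S phase list (left) and of the G2 and mitosis list (right) in T cells, by the number of Mki67 and Top2a UMIs per cell; each line is 1 of the 4 libraries and the dotted line is the threshold of the rule. The G2 and mitosis sum lies near 950 at 0 UMIs, at 1381 over all cells with exactly 2 UMIs and at 12634 over the 267 cells with more than 12.

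Most members carried a T cell receptor gene that the rule did not use. Trac, the constant part of the alpha chain of the T cell receptor, stood at 602 and 633 CPM (from here on scaled by the trimmed mean of M values) in DKO libraries, against 649 and 595 in control libraries. It had a UMI in 95.9% and 95.1% of DKO members, against 93.4% and 92.3% of control members. NK cells were not gated out, and genes used as NK markers were present. Klre1 stood at 105 and 144 CPM in DKO libraries, against 99.5 and 148 CPM in control libraries. Eomes stood at 64.3 and 74.1 CPM, against 52.3 and 54.6 CPM, and Klrb1c at 35.8 and 46.6 CPM, against 42.0 and 18.4 CPM. Ncr1 stood at 8.61 and 8.93 CPM, against 3.23 and 10.3 CPM. The defining genes Cd3e, Mki67 and Top2a stood at 425 and 431, 755 and 548, and 846 and 659 CPM in DKO libraries, against 413 and 442, 832 and 734, and 651 and 636 CPM in control libraries. Of 3 mast cell and basophil genes, Ms4a2 was at 0 in every library, Cpa3 had 3 and 0 UMIs in DKO libraries, against 0 and 1 in control libraries, and Mcpt8 had 12 and 31 UMIs, against 20 and 0. By the rule Csf1r was 0, and C1qa, C1qb and C1qc had at most 3 UMIs together per cell. Macrophage transcripts were still present, and 17 of the 18 that passed the filter on low counts were lower in DKO. This macrophage list includes genes of the rule, so its counts and sums are not independent of how the cells were chosen. Over the 20 macrophage genes the members summed to 1566 and 1637 CPM in DKO libraries, against 2405 and 1884 CPM in control libraries.

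Members with more than 1 UMI of any of 5 genes of other lineages (Cd79a, Lyz2, Adgre1, S100a8 and Cpa3) were 4.44% and 7.07% in DKO libraries, against 15.1% and 29.4% in control libraries. Of the 5 genes, Lyz2 had the most UMIs in members of every library. In Csf1r+ cells Lyz2 itself stood at 2304 and 2498 CPM in DKO libraries, against 4777 and 5558 CPM in control libraries (here without that scaling). The part of this difference in the shares of such members was not tested. Marked doublets were 4.44% and 6.52% of DKO members, against 5.26% and 2.10% of control members. The libraries shared 53 to 76 cell barcodes each with another library, and no barcode was that of a member in more than 1 library. Median depth per member was 9396 and 11754 UMIs in DKO libraries, against 9439 and 9008 in control libraries, and each library gave 1411944 to 3042466 UMIs of members.

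Cycling T cells were a larger share of all sorted leukocytes in DKO tumours. They were 4.11% and 3.79% of cells that passed the filter in DKO libraries, against 1.84% and 1.79% in control libraries (3.95% ± 0.230 and 1.81% ± 0.0355; SD, n = 2 each). The groups did not overlap, and the exact permutation test gave p = 0.333, the smallest possible for 2 against 2. The difference was 2.14 percentage points, and it was 1.13 points with the rule raised to 4 UMIs of Mki67 and Top2a. It was 1.24 points with members chosen after thinning to 3000 UMIs, and 1.34 points with members held to a mitochondrial limit of 5%. Thinning took the cells with at least 3000 UMIs and a Cd3 UMI. In each of these settings the denominator stayed all cells that passed the main filter at full depth. T cells as a whole were also a larger share of the cells in DKO. They numbered 1756 of 6565 and 1237 of 4859 cells in DKO libraries, against 1377 of 8276 and 1024 of 8005 in control libraries. Among T cells alone, cycling cells were 15.4% and 14.9% of the T cells in DKO libraries, against 11.0% and 14.0% in control libraries, a difference of 2.62 percentage points (exact permutation p = 0.333). At least 3000 UMIs were present in 1553 and 1170 of these T cells in DKO libraries, against 1175 and 861 in control libraries. The T cell gate was applied anew to the thinned counts, so the T cells after thinning were not exactly these. Cycling cells were then 173 of 1592 and 108 of 1172 T cells in DKO libraries (10.9% and 9.22%). In control libraries they were 112 of 1237 and 82 of 908 (9.05% and 9.03%). With the rule raised to 4 UMIs the groups overlapped, and the difference was 0.930 points (exact permutation p = 0.667).

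The 749 cells were divided by their own receptor genes. A CD8 cell had at least 2 UMIs of Cd8a and Cd8b1 and none of Cd4. Foxp3 cells had a Foxp3 UMI and fewer than 2 of the Cd8 genes. CD4 cells had a Cd4 UMI and none of Foxp3, Cd8a or Cd8b1, and gamma-delta cells had a Trdc UMI and none of Trac. CD8 cells were the most numerous subset in every library, at 57.8% and 32.1% of members in DKO libraries, against 48.7% and 46.2% in control libraries. CD4 cells were 22.2% and 31.0% in DKO libraries, against 16.4% and 23.1% in control libraries. Foxp3 cells were 6.67% and 12.5%, against 17.1% and 8.39%. Gamma-delta cells were 0.741% and 3.804%, against 3.95% and 4.20%, and were the subset whose groups did not overlap. These were only 2 and 7 cells in DKO libraries, against 6 and 6 in control libraries. For all 5 subsets, those left unassigned included, the adjusted exact p was 1.0. The DKO pair differed more between themselves in CD8 cells than the groups differed.

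CD8 cells cycled more often than CD4 cells within each of the 4 libraries. The cycling share was 18.4% ± 2.65 of CD8 cells and 13.0% ± 3.22 of CD4 cells (SD, n = 4 libraries). The difference was 5.45 points (exact paired permutation p = 0.125, the smallest that 4 pairs allow), and 6.12 points after thinning, again in 4 of 4 libraries. Foxp3 cells had a cycling share of 16.9% ± 2.03. This share did not differ from that of CD8 cells beyond the spread, with CD8 higher in 3 of 4 libraries (exact paired permutation p = 0.375). Gamma-delta cells had the lowest mean share, 6.70% ± 2.71, 11.7 points below CD8 cells and lower in 4 of 4 libraries. It rests on 2 of 66 and 7 of 86 cells in DKO libraries, against 6 of 94 and 6 of 65 in control libraries. After thinning the gap to CD8 cells was 6.92 points, again in 4 of 4 libraries. In Control 2 the thinned share of gamma-delta cells (11.1%) lay above that of CD4 cells (4.78%).

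By group, the CD4 subset cycled at 13.5% and 16.6% in DKO libraries, against 8.74% and 13.1% in control libraries. Foxp3 cells cycled at 15.7% and 15.5% in DKO libraries, against 19.8% and 16.4% in control libraries. Unassigned cells cycled at 9.71% and 12.4% in DKO libraries, against 5.30% and 8.0% in control libraries, a difference of 4.41 points. These 3 subsets did not overlap between groups, with an adjusted exact p of 0.556 for each. CD8 cells cycled at 19.9% and 16.7% in DKO libraries, against 15.7% and 21.4% in control libraries, so that the groups overlapped. By their S phase and mitosis sums, 61.5% and 45.1% of the DKO members, against 64.5% and 58.0% of the control members, leaned to G2 and mitosis (exact permutation p = 0.667). After thinning these shares were 74.0% and 56.5% in DKO libraries, against 66.1% and 68.3% in control libraries.

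**Figure D2:**
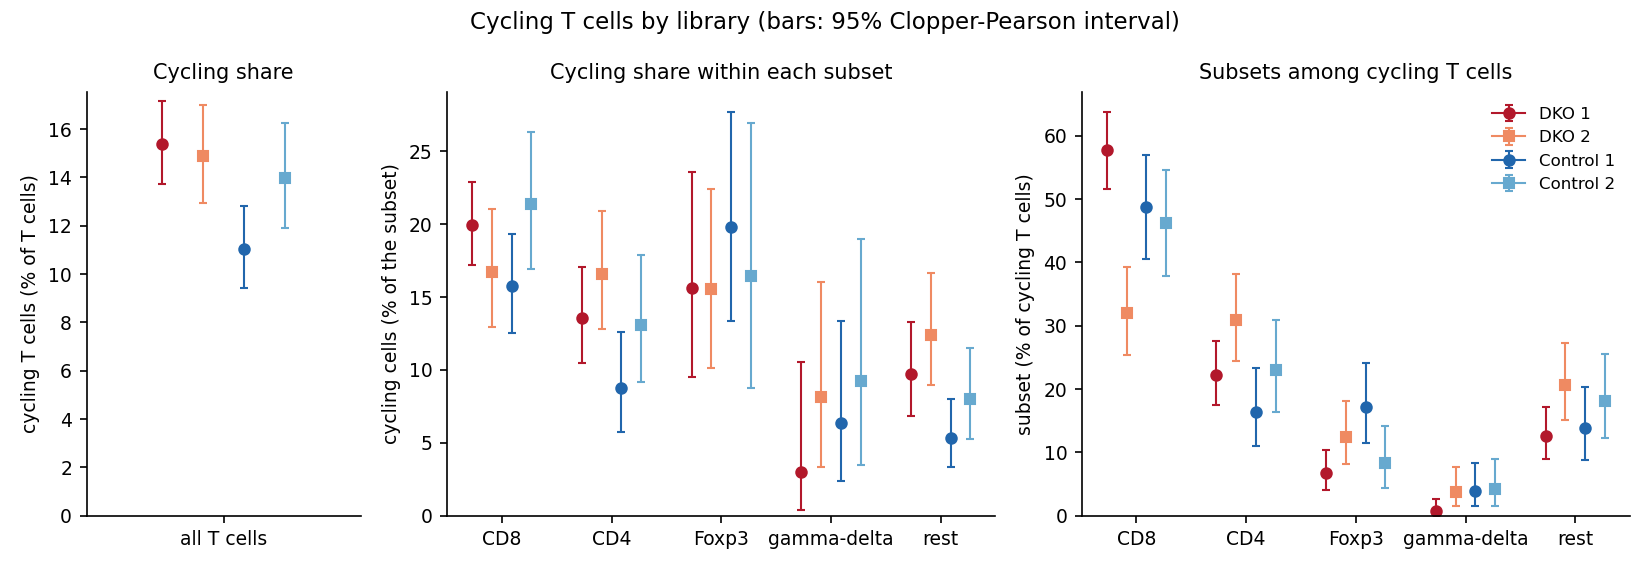
Cycling T cells as a percentage of all T cells (left) and of each subset (middle), and the subsets as a percentage of cycling T cells (right), with 1 point per library and 95% Clopper-Pearson intervals that cover counting error only. CD8 cells have the highest mean cycling share (18.4%) and gamma-delta cells the lowest (6.70%), and the DKO libraries lie apart from each other in CD8 share (57.8% and 32.1%).

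Cycling T cells were next set against the non-cycling T cells of the same 4 libraries. The classes were chosen by 2 genes of the same cells and differed 1.98- to 2.06-fold in median depth, so these levels are a description of the chosen cells. Of 9849 genes tested, 23.7% were called higher and 21.2% lower in cycling cells at an adjusted p under 0.05 (edgeR quasi-likelihood test, Benjamini-Hochberg, library as a block). All 45 S phase genes, all 55 G2 and mitosis genes and all 16 histone genes were higher. Outside the lists and the rule, the called genes with the greatest ratio to non-cycling cells were also cell division genes. Esco2, which ties sister chromatids together, had 407 UMIs in cycling and 2 in non-cycling cells. Pclaf, a partner of the replication clamp, had 3458 and 96 UMIs, and Sgo1, which guards the centromere, had 371 and 5.

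Genes of growth and metabolism were higher in cycling cells. Slc7a5, a transporter of large amino acids, averaged 53.5 ± 23.6 CPM in cycling and 14.3 ± 9.38 CPM in non-cycling cells (SD, n = 4 libraries), a log2 difference of 1.94 ± 0.13 (SE). Cdk4, the kinase that starts the exit from G1, averaged 95.4 ± 11.6 and 48.6 ± 7.95 CPM. Of 28 Myc and growth genes 16 were called higher and 3 lower, the 3 including the G1 cyclin gene Ccnd2 at 327 ± 62.1 and 569 ± 73.2 CPM. Among 23 genes of hypoxia and glycolysis 14 were higher and 1 lower, with lactate dehydrogenase Ldha at 840 ± 105 and 550 ± 66.7 CPM. Nuclear genes of mitochondrial respiration were higher in 23 of 27 cases and lower in 1, and genes of cholesterol synthesis in 10 of 19 with 0 lower. Slc7a5, Cdk4, Ccnd2 and Ldha each differed in the same direction in 4 of 4 libraries.

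Genes of resting, recirculating T cells were lower. Of 15 naive, memory and egress genes 13 were called lower and 1 higher, with a median log2 difference of -0.99 beside -0.01 over all genes tested. S1pr1, the receptor that lets T cells leave tissue, averaged 20.1 ± 2.92 CPM in cycling and 79.3 ± 29.2 CPM in non-cycling cells. Its activator Klf2 averaged 141 ± 45.8 and 335 ± 88.4 CPM, the related Klf3 17.9 ± 4.61 and 86.1 ± 13.2 CPM, and Tcf7, a factor of memory and stem-like T cells, 58.0 ± 15.4 and 189 ± 31.2 CPM. The chemokine receptor Cxcr4 averaged 81.3 ± 26.5 and 244 ± 49.7 CPM. In each of these 5 genes every library was lower in its cycling cells.

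Signalling and interferon genes were also lower in cycling cells. Of 23 T cell receptor signalling genes 18 were lower and 1 higher, of 31 cytokine receptor and signalling genes 21 lower and 1 higher, and of 12 costimulatory receptors 10 lower and 1 higher. Type I interferon response genes were lower in 16 of 23 cases with 0 higher, and 17 antigen-signal genes were lower in 11 cases and higher in 1. The early response gene Junb averaged 1459 ± 326 CPM in cycling and 2896 ± 382 CPM in non-cycling cells, and Cd69 305 ± 69.9 and 549 ± 92.9 CPM. A list of 22 genes raised by tissue dissociation, which includes genes of this kind, was lower in 13 and higher in 3.

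Effector genes were mixed. Gzmb, the granzyme that starts death of the target cell, averaged 1379 ± 252 CPM in cycling and 703 ± 184 CPM in non-cycling cells. Ccl5, a chemokine made by memory and effector CD8 cells, averaged 868 ± 222 and 2167 ± 501 CPM. Of 17 cytotoxic effectors 3 were higher and 5 lower, and of 18 inhibitory receptors and exhaustion factors 5 were higher and 7 lower. The death ligand Fasl (71.3 ± 6.97 and 108 ± 13.1 CPM) was among the lower genes, and the inhibitory receptor Havcr2 (109 ± 46.0 and 75.9 ± 29.8 CPM) among the higher. CD8 cells made up 46.2% ± 10.6 of cycling and 31.6% ± 6.42 of non-cycling cells, and in CD8 cells alone several of these values differed. The log2 difference of Gzmb was 1.02 both over all T cells and in CD8 cells alone, where its adjusted p was 0.0711 (edgeR). That of Havcr2 was 0.52 over all T cells and 0.18 in CD8 cells alone, where it was not called (adjusted p = 0.120). In CD8 cells alone Cd8a was lower in cycling cells, by 0.24 on the log2 scale, where over all T cells it was higher by 0.39.

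**Figure D3:**
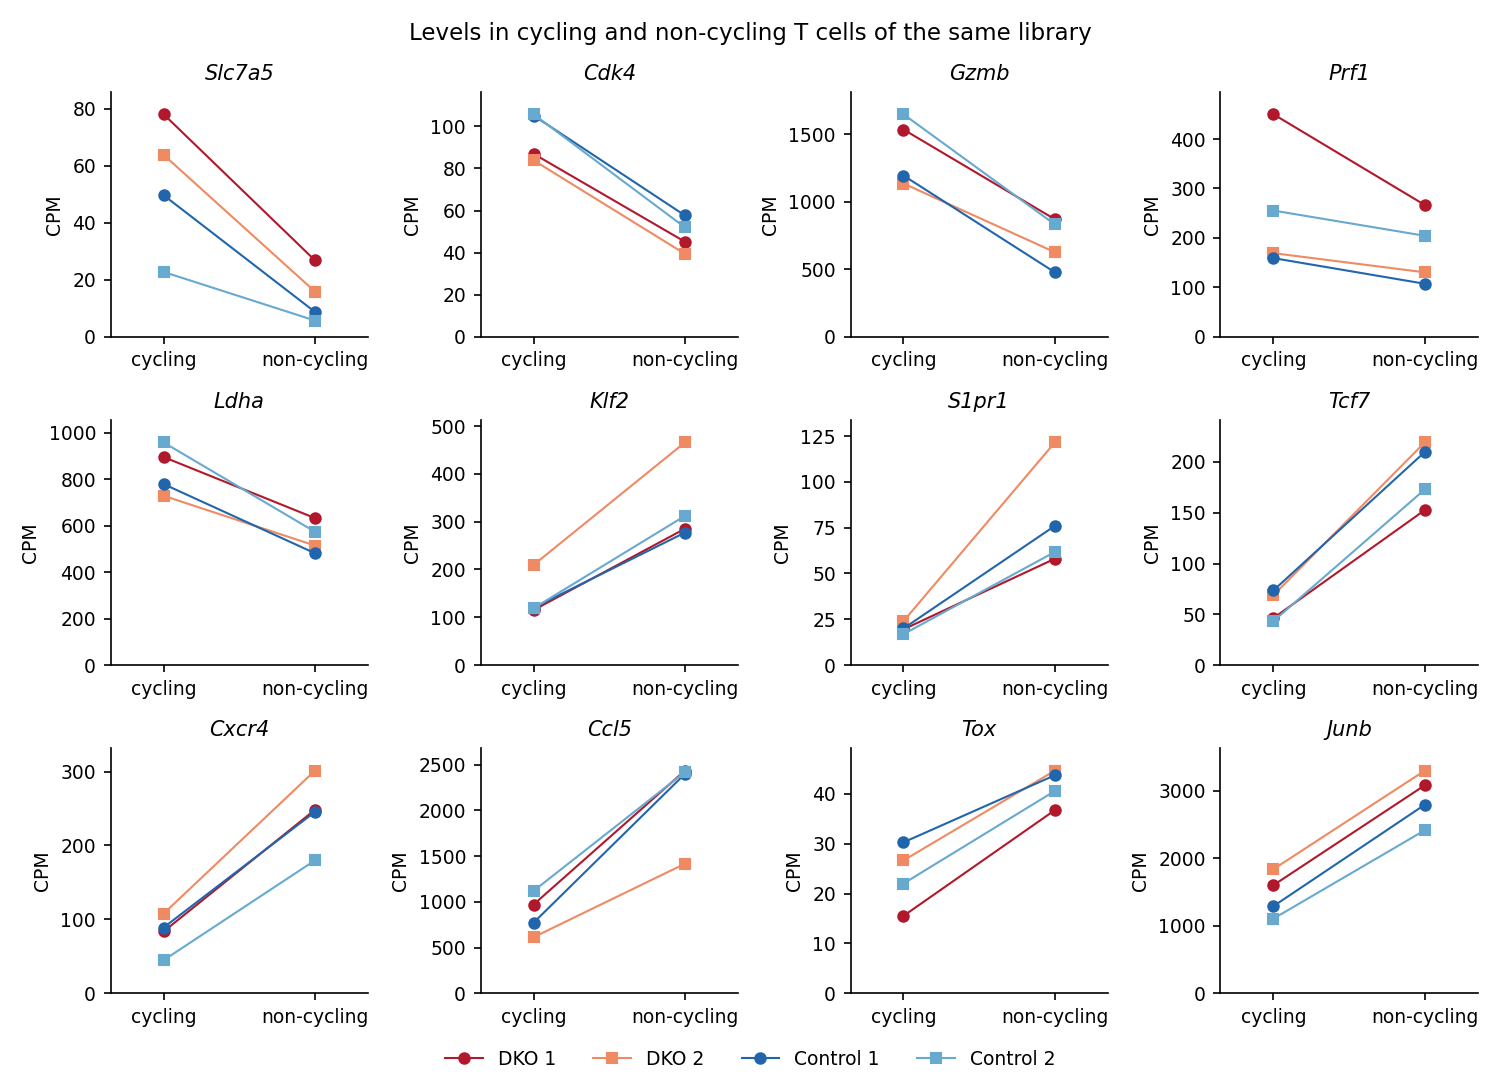
Level in CPM of 12 genes in cycling (left) and non-cycling (right) T cells, with a line joining the 2 classes of each library. Every line of Slc7a5, Cdk4, Gzmb, Prf1 and Ldha falls towards the non-cycling cells, and every line of Klf2, S1pr1, Tcf7, Cxcr4, Ccl5, Tox and Junb climbs towards them.

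The comparison of DKO with control asked how the cycling T cells differed when the tumours lacked Raldh1 and Raldh3. Of 9142 genes tested, 1 was called higher (0.0109%) and 0 were called lower (0.0%) at an adjusted p under 0.05 in edgeR, while DESeq2 called 5 higher and 3 lower. At an unadjusted p under 0.05, 498 genes (5.45%) were higher and 537 (5.87%) lower. The DKO and control libraries did not overlap, with DKO higher, in 23.3% of genes and, with DKO lower, in 20.1%. The counts for the gene groups below are to be read against these shares. From here on, called refers to the main edgeR fit unless another setting is named.

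Cyp11a1 was the gene called. It lies at chr9:58006411-58027023 on the plus strand of GRCm38 and encodes the enzyme that turns cholesterol into pregnenolone, the first step of steroid synthesis. It stood at 24.9 and 25.2 CPM in DKO libraries, against 1.29 and 3.69 CPM in control libraries, from 75 and 65 UMIs against 2 and 5. It rose by 3.33 ± 0.41 on the log2 scale (adjusted p = 0.0435, edgeR). Without 1 library at a time the difference was 2.73 to 4.21 and the adjusted p 7.7e-05 to 0.0870, and the call was lost without Control 1. In members with at least 4 UMIs of Mki67 and Top2a the difference was 3.56 and the adjusted p 0.141.

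Few cells carried Cyp11a1, and most of them were CD4 cells. In the CD4 subset it had 73 and 40 UMIs in 9 of 60 and 10 of 57 cells of DKO libraries, against 2 and 4 UMIs in 1 of 25 and 3 of 33 cells of control libraries. In DKO, 1 cell gave 25.3% and 27.7% of each library's UMIs. Il10, an anti-inflammatory cytokine gene, also had most of its DKO UMIs in CD4 cells. It stood at 88.1 and 174 CPM in DKO libraries, against 14.9 and 16.2 CPM in control libraries, a log2 difference of 3.06 ± 0.46 that edgeR did not call (adjusted p = 0.211) and DESeq2 did (adjusted p = 8.5e-12). The CD4 subset held 226 and 337 of its UMIs in DKO libraries, against 4 and 2 in control libraries, while Foxp3 cells held 22 and 30, against 19 and 20. In DKO 1 cell gave 31.2% and 31.5% of each library's Il10 UMIs. CD4 cells were 22.2% and 31.0% of DKO members, against 16.4% and 23.1% of control members.

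The other genes with the smallest p among those higher in DKO were not called in the main edgeR fit. Irs2, an adaptor of insulin and cytokine receptors, stood at 80.2 and 95.1 CPM in DKO libraries, against 42.7 and 34.7 CPM in control libraries (log2 1.16 ± 0.18, adjusted p = 0.0910). Ero1l, which forms disulfide bonds and is induced by low oxygen, stood at 114 and 170 CPM, against 45.9 and 56.8 CPM (log2 1.46 ± 0.22, adjusted p = 0.105). Ctla4, an inhibitory receptor of activated and regulatory T cells, stood at 478 and 636 CPM, against 306 and 281 CPM (log2 0.92 ± 0.16, adjusted p = 0.113). In all of these the DKO libraries lay above both control libraries. Ier3, Phlda1, Neat1 and Alcam had log2 differences of 0.91 to 1.13, and Ier3 and Phlda1 had -0.06 and 0.18 in CD8 cells alone, where that of Ero1l was 0.49. DESeq2 called Ero1l and Ctla4 (adjusted p = 0.00151 and 0.0122) and none of the others named here. At a mitochondrial limit of 5% edgeR called Irs2, Ier3, Ero1l and Phlda1, and without cells of other lineages Irs2, Ier3 and Phlda1. In members with at least 4 UMIs of Mki67 and Top2a none of these genes was called.

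Antigen-signal genes, which T cells switch on within hours of contact with antigen, lay above 0 in 16 of 16 tested, with a median log2 difference of 0.37 beside 0.01 over all genes. None was called, 7 of 16 had an unadjusted p under 0.05, and 8 of 16 did not overlap between groups. Nr4a1, an immediate target of the T cell receptor, stood at 183 and 216 CPM in DKO libraries, against 114 and 84.8 CPM in control libraries (log2 0.98 ± 0.17, adjusted p = 0.113). Within CD8 cells alone the Nr4a1 difference was 1.39 and was called (adjusted p = 0.0333). DESeq2 called Nr4a1 over all members (adjusted p = 0.0412). Nr4a3 stood at 140 and 152 CPM, against 93.7 and 77.4 CPM, and Irf4 and Nfkbid had log2 differences of 0.67 and 0.56. The list's median was 0.34 to 0.39 without 1 library at a time and 0.39 in members with at least 4 UMIs. The high-affinity interleukin 2 receptor Il2ra, another product of activation, stood at 370 and 435 CPM, against 260 and 215 CPM (log2 0.75 ± 0.15, adjusted p = 0.172).

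Inhibitory receptors and exhaustion factors were higher in 13 of 18 tested, with 6 higher and 1 lower at an unadjusted p under 0.05, a median of 0.28 and 0 called. Lag3, which binds class II molecules and dampens receptor signals, stood at 300 and 319 CPM in DKO libraries, against 191 and 176 CPM in control libraries (log2 0.75 ± 0.14, adjusted p = 0.113). Pdcd1, the receptor blocked by checkpoint antibodies, stood at 126 and 77.2 CPM, against 111 and 121 CPM, with overlapping groups. Cd160 went the other way, with 82.5 and 89.7 CPM in DKO libraries, against 128 and 131 CPM in control libraries. Cytotoxic effectors showed no common direction, with 11 of 17 higher, none at an unadjusted p under 0.05 and a median of -0.27 without DKO 1 and 0.61 without DKO 2. Gzmb stood at 1540 and 1141 CPM, against 1198 and 1657 CPM, and Ifng at 539 and 256 CPM, against 228 and 344 CPM.

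Hypoxia and glycolysis genes were higher in 19 of 23 tested, with a median of 0.30, 7 at an unadjusted p under 0.05 and 0 called. Besides Ero1l these included Egln3, an oxygen sensor, at 25.2 and 22.1 CPM in DKO libraries, against 11.0 and 9.58 CPM in control libraries. Hexokinase Hk2 stood at 91.8 and 82.7 CPM, against 45.9 and 61.9 CPM. The list's median was 0.10 to 0.40 without 1 library at a time, lowest without DKO 1. Nuclear genes of mitochondrial respiration were lower in 27 of 27 tested, with a median of -0.36, 16 of 27 at an unadjusted p under 0.05, 20 of 27 with groups apart and 0 called. Ndufa4, a subunit of the respiratory chain, stood at 263 and 271 CPM, against 377 and 378 CPM (log2 -0.51 ± 0.13, adjusted p = 0.242). In members with at least 4 UMIs 25 of the 27 genes were lower, with a median of -0.28. Ribosomal protein genes were lower in 77 of 81, with a median of -0.21 and 13 at an unadjusted p under 0.05.

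Apoe had the smallest p among genes lower in DKO. This lipid carrier of macrophages stood at 75.5 and 78.0 CPM in DKO libraries, against 145 and 147 CPM in control libraries (log2 -0.94 ± 0.13, adjusted p = 0.0741). It was called in members with at least 4 UMIs (log2 -1.08, adjusted p = 0.0411) and without cells of other lineages (adjusted p = 0.0462). In Csf1r+ cells of the same libraries Apoe stood at 4159 and 5115 CPM in DKO and 6101 and 5573 CPM in control, where it was likewise lower in DKO. The CPM of Csf1r+ cells were not scaled by the trimmed mean of M values. The part of free macrophage RNA in the T cell values was not tested. Lyz2, the macrophage lysozyme, stood at 56.7 and 34.5 CPM, against 67.9 and 106 CPM.

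Type I interferon response genes were lower in 16 of 20 tested, with a median of -0.27, 7 at an unadjusted p under 0.05 and 0 called. Bst2, which tethers budding viruses, stood at 73.6 and 75.3 CPM in DKO libraries, against 117 and 128 CPM in control libraries (log2 -0.72 ± 0.14, adjusted p = 0.137). Ifi27l2a stood at 439 and 517 CPM, against 818 and 713 CPM. The list's median was -0.07 without Control 1. Outside the lists, the surface glycoprotein Cd52 stood at 1954 and 1844 CPM, against 2843 and 3169 CPM, and Klrg1, a receptor of terminal effector T cells, at 28.8 and 44.3 CPM, against 65.3 and 78.1 CPM. Selenoh, Mrpl58, Sdf2l1, Cyb5a and Ctsz had log2 differences of -0.61 to -0.77 with no overlap between groups.

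The cell cycle lists were lower in DKO in most genes. Of 45 S phase genes 35 were lower, with a median of -0.16, and of 54 tested G2 and mitosis genes 40 were lower, with a median of -0.15 that became 0.05 without DKO 2. Histone genes were lower in 15 of 16, with a median of -0.45 that was -0.88 without DKO 1 and -0.18 without Control 2. Cdc20, which opens the way to anaphase and whose promoter is shown above, stood at 60.6 and 43.5 CPM, against 75.0 and 87.7 CPM. The DKO members close to the threshold also had the lower G2 and mitosis sums given above, and with at least 4 UMIs the medians were -0.09 for both phase lists and -0.38 for histones.

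Genes of the retinoic acid pathway were sparse. Of 22 listed, 14 passed the filter, 9 were higher and 5 lower, with a median of 0.12 and 0 called. Rara, a receptor for retinoic acid, stood at 39.8 and 46.2 CPM in DKO libraries, against 33.0 and 27.3 CPM in control libraries. The gut-homing integrin gene Itgb7, raised by retinoic acid in other settings, stood at 149 and 158 CPM, against 184 and 176 CPM. T cell lineage genes, which include Cd3 genes of the rule, were lower in DKO in 15 of 16. Their median was -0.16, with 3 at an unadjusted p under 0.05, 5 of 16 with groups apart and 0 called. No subset gene was called. Cd8a stood at 457 and 246 CPM, against 383 and 369 CPM, Cd4 at 119 and 207 CPM, against 114 and 133 CPM, and Foxp3 at 24.2 and 56.7 CPM, against 73.0 and 25.1 CPM. In each of these 3 the DKO libraries differed more from each other than the group means did. Trdc, of gamma-delta cells, stood at 23.9 and 43.1 CPM in DKO libraries, against 47.8 and 53.8 CPM in control libraries, with the groups apart (log2 -0.62 ± 0.27, adjusted p = 0.426).

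**Figure D4:**
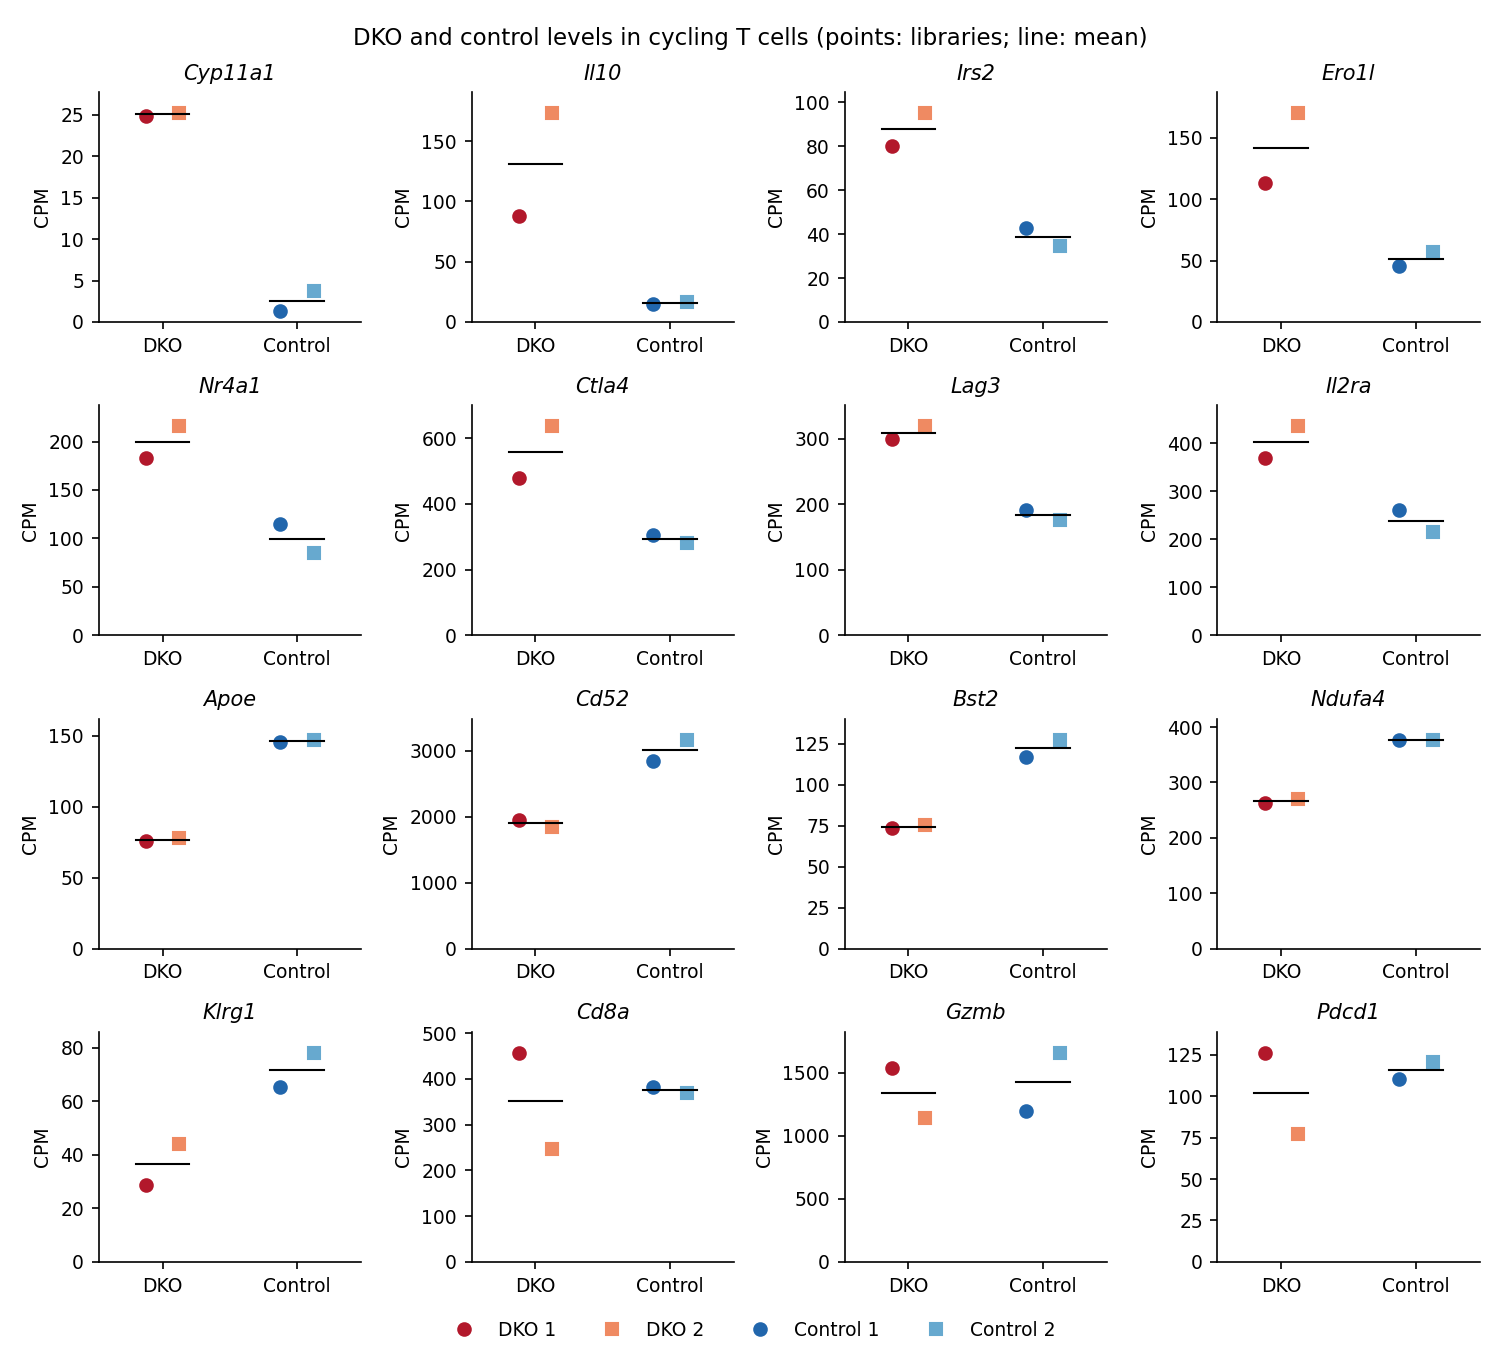
Level in CPM of 16 genes in cycling T cells of the 2 DKO libraries (left) and the 2 Cas9 Control libraries (right), with the group mean as a line. Cyp11a1, Il10, Irs2, Ero1l, Nr4a1, Ctla4, Lag3 and Il2ra lie higher in both DKO libraries, Apoe, Cd52, Bst2, Ndufa4 and Klrg1 lie lower in both, and Cd8a, Gzmb and Pdcd1 overlap.

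**Figure D5:**
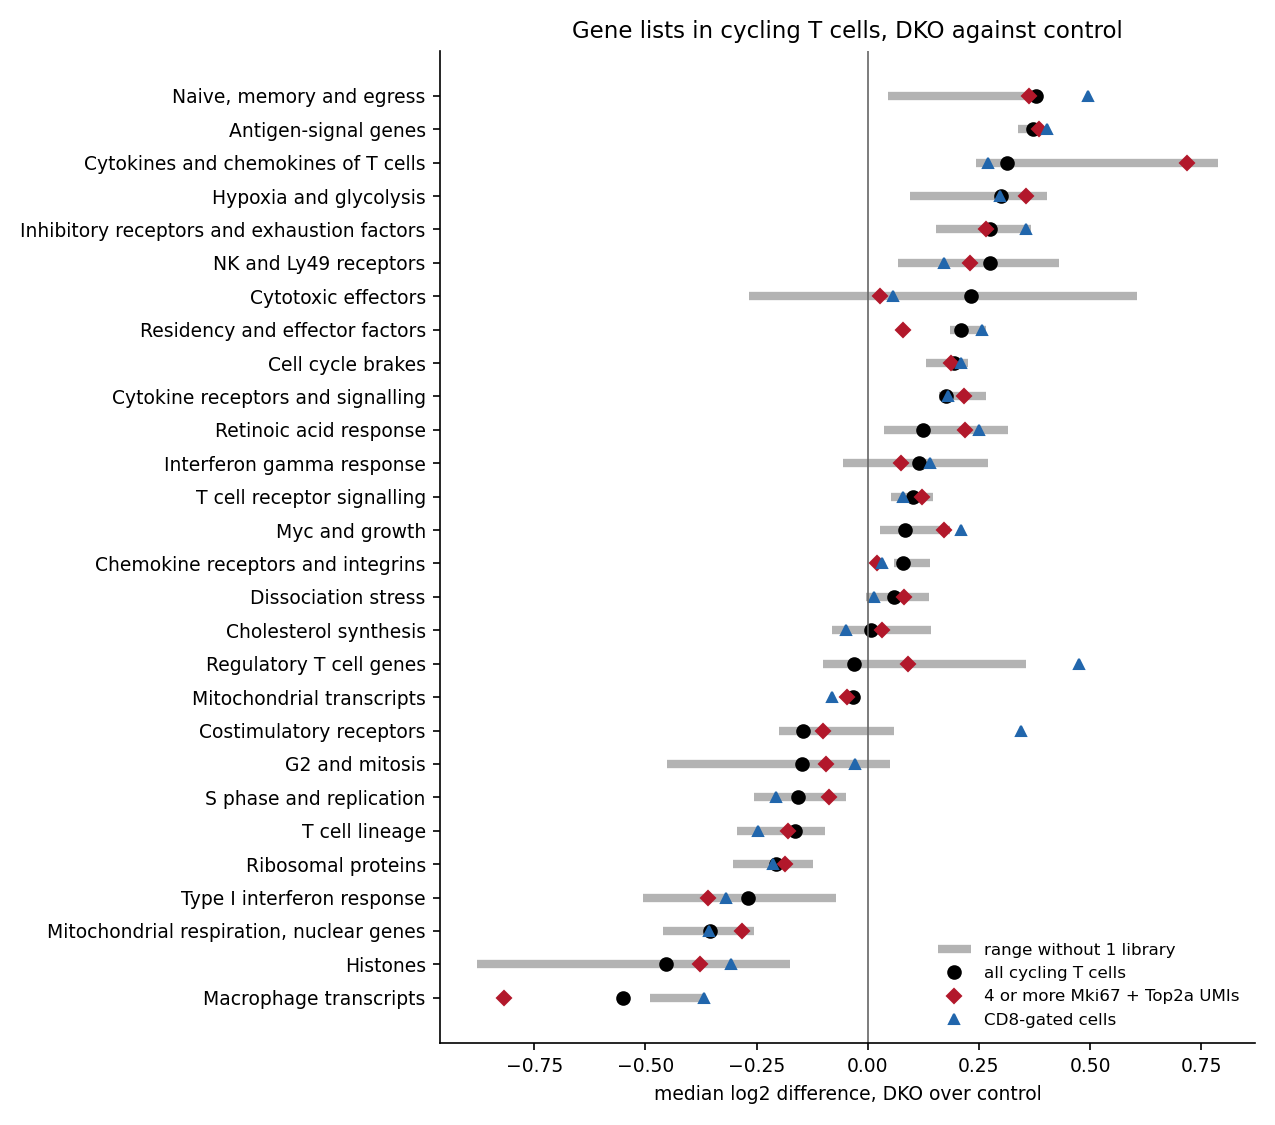
Median log2 difference, DKO over control, of each gene list in cycling T cells (black), in members with at least 4 Mki67 and Top2a UMIs (red), in CD8 cells alone (blue), and the range without 1 library at a time (grey). Antigen-signal genes keep a median of 0.34 to 0.39 and nuclear respiration genes one of -0.46 to -0.26, while the range of cytotoxic effectors crosses 0.

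Non-cycling T cells of the same libraries were compared in the same way. Of 10476 genes tested there, 0 were called higher (0.0%) and 1, Lyz2, lower (0.00955%), while 785 were higher and 764 lower at an unadjusted p under 0.05 and DESeq2 called 17 higher and 29 lower. Nr4a1 differed by 0.98 in cycling and 0.89 in non-cycling cells on the log2 scale, Lag3 by 0.75 and 0.80, and Apoe by -0.94 and -0.93. Antigen-signal genes had medians of 0.37 and 0.39, and nuclear respiration genes of -0.36 and -0.23. Hypoxia and glycolysis genes had medians of 0.30 and 0.35, type I interferon response genes of -0.27 and -0.23, and ribosomal protein genes of -0.21 and -0.31. In non-cycling cells 81 of 82 ribosomal protein genes were lower, 49 of them at an unadjusted p under 0.05. Cytotoxic effectors had medians of opposite sign, 0.23 and -0.15. The difference between the classes was tested itself, with library as a block. Of 10313 genes, the DKO change was more positive in cycling cells for 14 (0.136%) and more negative for 3 (0.0291%). Il10 and Irs2 were among the 14, and neither was called without the library block. Irs2 stood at 88.3 and 103 CPM in non-cycling cells of DKO libraries, against 84.1 and 99.5 CPM in those of control libraries, a DKO change smaller by 1.11 than in cycling cells (adjusted p = 0.00607). The Cyp11a1 change was 3.33 in cycling and 1.18 in non-cycling cells, and this difference did not pass the test (adjusted p = 0.376).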

How the data were processed

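The deposited values were UMI counts per barcode and gene. The submitters' processing notes name Cell Ranger, Seurat 3.1.0, R 3.6.0 and, with no role given, mm10 and GRCh38. Matrix software 3.1.0 is given per the file headers. Of 31053 features, 30934 (99.6%) matched GENCODE vM21 (GRCm38), the source of coordinates. No correction for free RNA was made. Doublets were scored with Scrublet in scanpy 1.11.5 and the highest scores were marked, in proportion to the number of barcodes, but kept in the main results.

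The members' UMIs were summed per library, since cells are not replicates. DKO and control sums were tested with edgeR 4.0.16 (R 4.3.3; quasi-likelihood test, trimmed mean of M values, filterByExpr on low counts, Benjamini-Hochberg adjustment over all genes), with DESeq2 1.42.0 as an alternative. Cycling against non-cycling sums, and the difference of the DKO change between them, had the library as a block. A standard error is the log2 difference divided by the square root of the F statistic. Shares were compared by exact 2-sided permutation tests over libraries. Leaning to G2 and mitosis meant more UMIs of that list than of the S phase list. Named genes were the 10 of smallest p in each direction with at least 20 CPM in the higher group, up to 4 per list, and subset and effector genes. For cycling against non-cycling cells, those of largest change replaced the smallest p. From these, the text gives the ones that carry each group. Junb, Cd69 and Havcr2 came in through their lists. The members, lists and tests were chosen with earlier results of these data known. The sums per library alone do not tell fewer cells with a transcript from less of it per cell, so shares of cells are given for some genes. The labels do not say that the replicate numbers pair the libraries, and the main tests used no such pairing. Deviations from the group means of libraries with the same number correlated at -0.152 over genes in cycling cells. With 2 libraries a group this value cannot show whether libraries of the same number were handled together.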

Additional observations from a re-analysis of the deposited data

Results flagged for a closer look

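For 10 genes the DKO change differed between cycling and non-cycling T cells by a test of the difference itself (edgeR, library as a block), and these were those of smallest p. Each lost its call without at least 1 of the 4 libraries. Jun, an early response factor, stood in cycling cells at 260 and 354 CPM in DKO libraries, against 197 and 198 CPM in control libraries, and in non-cycling cells at 373 and 449 CPM, against 460 and 494 CPM (difference of log2 changes 0.84). Irs2 differed by 1.11 and Il10 by 1.70, with their values above. Bcl2, which protects from cell death, stood in cycling cells at 261 and 288 CPM in DKO libraries, against 187 and 211 CPM in control libraries, and in non-cycling cells at 399 and 449 CPM, against 459 and 447 CPM (0.57). The nuclear RNA Malat1 differed by 0.34.

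Gzma, a granzyme, stood in cycling cells at 1743 and 1139 CPM in DKO libraries, against 445 and 1349 CPM in control libraries (0.65). The granzyme gene Gzmg differed by 6.30, but 532 of its UMIs in cycling cells came from 4 cells of DKO 1 and 58.8% of those from 1 cell, and its control libraries had 5.57 and 491 CPM in non-cycling cells. Gzmg belongs to a family of near-identical granzyme genes whose counts the authors' alignment could split. Serpinb9b differed by -4.89, with 1.98 and 0.773 CPM in cycling cells of DKO libraries, against 9.02 and 21.3 CPM in those of control libraries. The heat shock gene Hspa1a, on the list of genes raised by dissociation and nearly identical to Hspa1b, differed by -1.47, and Myo10, a motor protein gene, by 1.29. Whether library, depth or cell makeup had a part in these differences was not tested.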

How the results depend on the processing

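The tests rest on 2 pools a group, and the members with 2 or 3 gate UMIs stand near non-cycling cells in the cell cycle lists (1349 and 950 CPM of G2 and mitosis, 1520 and 933 of S phase). These list sums were not scaled by the trimmed mean of M values. In cycling cells, genes called higher and lower in DKO numbered 93 and 66 with no filter on low counts, 3 and 1 without marked doublets, 6 and 1 with a mitochondrial limit of 5%, 5 and 3 by DESeq2, 2 and 3 in CD8 cells only, 6 and 3 without cells of other lineages, and 1 lower with at least 4 gate UMIs. In non-cycling cells these numbered 238 and 183, 11 and 10 (5% limit), 2 and 2 (at least 4 Cd3 UMIs), 17 and 29 (DESeq2), 4 and 9 (CD8), and 1 higher without other lineages. With the replicate block 49 and 22 were called in cycling and 11 and 14 in non-cycling cells, and with crossed numbers 157 and 222, and 653 and 687. The labels do not say that the numbers are a pairing. For the difference between classes the counts were 42 and 17 (no filter), 22 higher (5% limit), 4 and 10 (CD8), and 0 and 1 with no replicate block. Cycling against non-cycling calls were 1555 and 1097 by DESeq2 and 1228 lower with no replicate block. Without 1 library at a time, calls in cycling cells ran from 2 to 48 higher (48 without DKO 1, 34 without DKO 2) and 1 to 26 lower, in non-cycling cells from 0 to 212 and 1 to 464, for the difference from 4 to 33 and 0 to 12, and for the classes from 2019 to 2227 and 1706 to 1929. Shares, DKO minus control in percentage points, reversed for CD8 members with at least 4 gate UMIs (1.66), Foxp3 members after thinning (0.824), unassigned members without doublets (-0.369) and at the 5% limit (-1.96), the cycling share of CD8 cells at the 5% limit (0.866) and with 4 gate UMIs (0.375), and that of Foxp3 cells after thinning (0.870). Without 1 library they spanned 1.16 to 4.09 (cycling share), 1.98 to 2.30 (of all cells), -16.1 to 0.224 (G2 and mitosis), -15.4 to 10.4 (CD8 members), 2.46 to 11.2 (CD4), -7.52 to 1.19 (Foxp3), -3.33 to -0.267 (gamma-delta), -3.41 to 4.65 (unassigned), -3.03 to 2.59 (cycling share of CD8 cells) and -4.78 to 0.333 (of gamma-delta cells), and the CD8 minus CD4 share 4.52 to 7.22. Log2 differences reversed in CD8 cells for Ier3 (-0.0583), Tnfrsf4 (0.605), Trac (0.076), Trdc (0.38, cycling over non-cycling) and Cd8a (-0.24, likewise), at the 5% limit for Gzmb (0.22) and Trac (0.0504), and without other lineages for Gzmb (0.0072). Without 1 library they ran from -0.62 to 0.26 (Cd8a), -0.0645 to 0.75 (Cd4), -1.06 to 0.66 (Foxp3), -0.0846 to 0.0413 (Trac), -0.325 to 0.15 (Gzmb), -0.16 to 0.90 (Ifng) and -0.58 to 0.11 (Pdcd1). The causes were not tested. Of the other values for single genes and shares, 1062 kept direction and call under other settings, 123 gained a call and 37 lost it.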
